A study of Xenopus laevis with 40 samples.

Results

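The 7 gene copies gpi.S, got2.S, uso1.L, ndrg4.S, ppp1cc.L, psenen.S and aqr.L were each chosen by their counts at a single stage. At that stage the counts differed between explants with a foxa1 morpholino and uninjected explants. The 7 copies are described here together with the other copy of each gene, which makes 14 of the 51017 gene IDs in the count files. Xenopus laevis is an allotetraploid frog, and many of its genes exist as a related pair of copies, marked L and S after the subgenome that carries them. gpi.S, got2.S and uso1.L were chosen at st16, ndrg4.S, ppp1cc.L and psenen.S at st10.5, and aqr.L at st32. At those stages the comparison of foxa1MO with uninjected explants is given for the 7 named copies as a description without a test, and tests rest on the other stages.

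The counts come from 40 bulk poly-A RNA-seq libraries of animal caps, ectoderm cut from wild-type blastulae that forms a mucociliary epidermis in culture. The injected groups received 3 pmol of a morpholino on the foxa1 start codon (foxa1MO), suh-dbm mRNA at 100 ng/ul, suh-dbm and dnmcidas mRNA at 100 ng/ul each, or nicd mRNA at 120 ng/ul, and the fifth group was uninjected. Suh-dbm is a form of Su(H) that cannot bind DNA and blocks Notch signalling, dnmcidas a dominant-negative multicilin, and nicd the intracellular domain of Notch, which activates it. All 5 groups have 2 libraries at each of 4 developmental stages (st10.5, st16, st25, st32), from 2 experiments that used different females. An injection of a control morpholino was not analysed here. Fewer cells of a type and less RNA per cell cannot be told apart in these bulk libraries.

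Foxa1 is a forkhead transcription factor, and in the frog epidermis it is needed for the small secretory cells. The 7 genes have separate tasks. gpi encodes glucose-6-phosphate isomerase of glycolysis, and got2 the mitochondrial aspartate aminotransferase of the malate-aspartate shuttle. uso1 encodes a tether for vesicles between the endoplasmic reticulum and the Golgi, ndrg4 a cytoplasmic protein of the N-myc downstream-regulated family, and ppp1cc a catalytic subunit of protein phosphatase 1. psenen encodes a subunit of gamma-secretase, the protease that releases the Notch intracellular domain, and aqr an RNA helicase that binds introns in the spliceosome.

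The 8 foxa1MO libraries held 32.2 M to 51.6 M counts each, and the 8 uninjected libraries 25.9 M to 99.4 M. The morpholino acts on translation, so the foxa1 transcript does not check the label, and at st25 foxa1.L was at 18.5 ± 2.54 CPM in foxa1MO explants and 10.7 ± 5.53 CPM in uninjected explants (SD, n = 2 each; CPM is the count as a share of the library total, scaled up to a common depth). Of 6 epidermis marker copies (tfap2a, grhl3 and krt12), 0 passed the edgeR test at any stage, where 0.0126% to 0.0442% of all genes passed. At st32, 1 of the 6 copies had an unadjusted p under 0.05. Their summed level at st25 was 5560 to 5960 CPM in foxa1MO explants and 9280 to 9330 CPM in uninjected explants, and at st16 it was 5500 to 5820 CPM against 6930 to 7660 CPM. At st32 it was 4470 to 5270 CPM in foxa1MO explants and 8510 to 10100 CPM in uninjected explants. Of these 6 copies, 1 had a log2 fold change above 0 at st16, 3 at st25 and 2 at st32 (medians -0.12, -0.03 and -0.31). At st16 the 7 multiciliated cell marker copies summed to 316 to 497 CPM in foxa1MO explants and 503 to 637 CPM in uninjected explants. Their sums overlapped at st10.5 (73.9 to 84.3 CPM against 29.5 to 114 CPM), st25 (70.6 to 91.8 CPM against 83.2 to 100 CPM) and st32 (55.5 to 63.2 CPM against 57.2 to 95.5 CPM). The 3 small secretory cell marker copies, foxa1.L and foxa1.S among them, summed to 31.4 to 42.6 CPM in foxa1MO explants and 22.0 to 26.9 CPM in uninjected explants at st25. The sums were 32.8 to 43.1 CPM against 26.9 to 32.2 CPM at st32, and 14.3 to 48.3 CPM against 26.8 to 64.0 CPM at st16. Both foxa1 copies made up most of each sum. At st25 foxa1.S averaged 18.2 CPM in foxa1MO explants and 12.9 CPM in uninjected explants, beside the foxa1.L values above. These sums therefore mostly repeat the target's own transcript and give no separate reading of small secretory cells. The 4 ionocyte marker copies summed to 720 to 879 CPM in foxa1MO explants and 916 to 1050 CPM in uninjected explants at st25. Yet 3 of the 4 had a log2 fold change above 0 there (median 0.29). At st16 they summed to 670 to 831 CPM in foxa1MO explants against 452 to 768 CPM. The 1 basal cell marker copy was at 65.6 to 104 CPM in foxa1MO explants against 115 to 135 CPM at st32. It overlapped at the other stages, with 15.2 to 118 CPM against 33.1 to 88.2 CPM at st16. The 3 goblet cell marker copies overlapped at every stage. Sums of the 5 neural marker copies were lower in foxa1MO explants at st16 (29.4 to 39.2 CPM against 41.0 to 51.9 CPM). They were higher at st32 (1.72 to 1.77 CPM against 0.888 to 1.52 CPM) and overlapped at st10.5 and st25. At st10.5 the 2 mesoderm marker copies summed to 0.947 to 2.52 CPM in foxa1MO explants and 1.24 to 2.05 CPM in uninjected explants, and the 2 endoderm marker copies to 0.752 to 5.16 CPM against 0.718 to 3.67 CPM. At st16 the endoderm copies summed to 0.0621 to 1.12 CPM in foxa1MO explants and 0.0343 to 0.0403 CPM in uninjected explants, with 1 of the 2 at an unadjusted p under 0.05 and 0 called. Whether these marker levels had a part in the differences given below was not tested.

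Over the 3 stages that had not chosen them, 3 of the 7 named copies differed between foxa1MO and uninjected explants, and 0 of the 6 detected other copies did. gpi.S and ppp1cc.L rose and aqr.L fell, while got2.S, uso1.L, ndrg4.S and psenen.S kept the sign of their stage of choice and did not pass. The main fit had no block and took all libraries as independent, across stages too, although they come from 2 experiments. A call means that edgeR's quasi-likelihood test gave an adjusted p under 0.05, by the Benjamini-Hochberg method over 31648 tested genes. Each value is the mean of 3 stage differences. Of all genes tested, that test called 0.237% without st16 (used for gpi, got2 and uso1), 0.626% without st10.5 (used for ndrg4, ppp1cc and psenen) and 0.278% without st32 (used for aqr). An unadjusted p under 0.05 was found for 7 of the 7 named copies and 0 of the 6 other copies. The share of all genes with such a p is not given, here or beside later counts of unadjusted p-values, so these counts are a description. DESeq2 called 5 of the named copies and 0 of the other copies, and its counts over all genes stand in the last section. At st16, the stage that chose gpi, got2 and uso1, their other copies gpi.L (1.53), got2.L (1.63) and uso1.S (-0.84) had the sign of the named copy and an unadjusted edgeR p under 0.05, and 0 of the 6 other copies were called there. At st10.5, st25 and st32, 1, 0 and 0 of the 6 had an unadjusted p under 0.05. The remaining copy, aqr.S, had 0 counts in all 40 libraries. By counting error alone that allows up to 3 counts per library, or 0.0302 CPM in the deepest and 0.149 CPM in the shallowest. Whether the gene model or the read counting gave these 0 counts was not tested, so they are not read as an absence of aqr.S RNA.

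**Figure D1:**
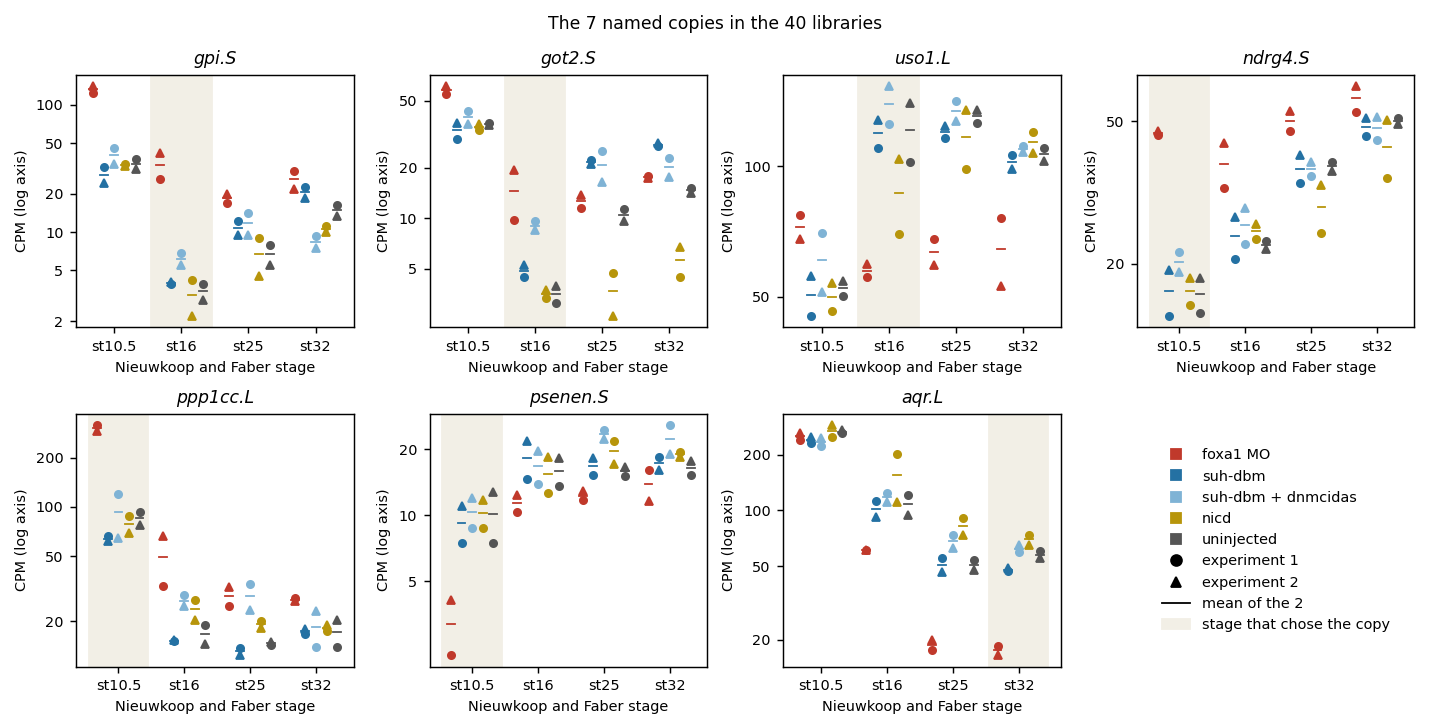
CPM (log axes) of the 7 named copies in each of the 40 libraries by stage, with foxa1MO at the left and uninjected at the right of each stage; circles are experiment 1, triangles experiment 2, lines the mean of the 2 and shading the stage that chose the copy. At st25 gpi.S sits at 17.0 and 19.8 CPM in foxa1MO explants, above the 4.56 to 14.1 CPM of the other 8 libraries of that stage, and aqr.L at 17.5 and 19.9 CPM, below their 46.3 to 90.5 CPM.

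gpi.S (gene15232) was high in foxa1MO explants at st10.5, st25 and st32, which did not choose it. At st10.5 it had 124.0 and 141.0 CPM in the foxa1MO libraries of experiments 1 and 2, against 37.3 and 31.6 CPM in uninjected explants. At st25 the values were 17.0 and 19.8 CPM against 7.93 and 5.52 CPM, and at st32 30.3 and 21.8 CPM against 16.4 and 13.4 CPM. The foxa1MO and uninjected libraries did not overlap at any of these 3 stages, and at st10.5 and st25 the foxa1MO libraries also lay above all 6 libraries of the other injections. Here and below, such separation is a description of few libraries, and the share of all genes that show it was not computed. The uncalled gpi.L also lay apart from uninjected explants at st10.5. For gpi.S the mean difference over the 3 stages was 1.38 ± 0.20 (log2 fold change ± SE; 95% interval 0.97 to 1.79; edgeR adjusted p = 0.000871). Stage by stage the log2 fold change was 1.84 at st10.5 (edgeR adjusted p = 0.0964), 1.46 at st25 (adjusted p = 0.302) and 0.84 at st32 (adjusted p = 1.0). With the experiment as a replicate block, edgeR called st10.5 (adjusted p = 0.00445) and st25 (adjusted p = 0.0266). At st16, where it was chosen, gpi.S had 26.1 and 41.8 CPM in foxa1MO explants against 3.94 and 2.91 CPM in uninjected explants, a log2 fold change of 3.22 ± 0.37.

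gpi.L (gene10890), the other copy of the isomerase gene, had smaller differences. Over the stages other than st16 its difference was 0.41 ± 0.26 (95% interval -0.11 to 0.94; edgeR adjusted p = 0.977). At st16 it averaged 13.7 ± 4.46 CPM in foxa1MO explants and 4.46 ± 1.28 CPM in uninjected explants (SD, n = 2 each), without overlap. That difference of 1.53 ± 0.45 was not called (edgeR adjusted p = 0.602, unadjusted p = 0.00217), and was called with a replicate block within each stage (adjusted p = 0.0446). At st10.5 gpi.L had 97.9 and 81.9 CPM in foxa1MO explants against 80.6 and 58.5 CPM in uninjected explants, at st25 3.78 and 7.15 CPM against 3.37 and 2.81 CPM, and at st32 2.95 and 4.63 CPM against 3.04 and 4.09 CPM. Uninjected and foxa1MO libraries overlapped at st32 alone.

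got2.S (gene11487) had its largest difference at st16. It was chosen at 9.75 and 19.2 CPM in foxa1MO explants against 3.15 and 3.94 CPM in uninjected explants of st16, a log2 fold change of 1.96 ± 0.29. At st10.5 it had 54.6 and 61.0 CPM in foxa1MO explants against 36.9 and 35.7 CPM in uninjected explants, at st25 11.5 and 13.8 CPM against 11.3 and 9.67 CPM, and at st32 17.8 and 17.3 CPM against 15.1 and 14.2 CPM. The foxa1MO libraries were the higher ones at each of these 3 stages, without overlap, by a mean of 0.39 ± 0.16 (95% interval 0.05 to 0.72; edgeR adjusted p = 0.69).

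got2.L (gene14779) had 4.6 and 6.24 CPM in foxa1MO explants of st16 against 2.13 and 1.13 CPM in uninjected explants. This difference of 1.63 ± 0.39 missed the threshold (edgeR adjusted p = 0.224, unadjusted p = 0.000304), and passed it with the replicate block (adjusted p = 0.0302) and with DESeq2 (adjusted p = 0.00564). At st10.5 got2.L was at 47.8 and 45.7 CPM in foxa1MO explants and at 28.9 and 20.5 CPM in uninjected explants. At st25 the foxa1MO values of 3.6 and 3.94 CPM lay just below the uninjected values of 4.08 and 4.15 CPM, and at st32 the groups overlapped. Over the 3 stages its difference was 0.23 ± 0.22 (95% interval -0.22 to 0.68; edgeR adjusted p = 1.0).

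uso1.L (gene36430) was low in foxa1MO explants at st25 and st32 and not at st10.5. It was chosen at st16, at 55.5 and 59.4 CPM in foxa1MO explants against 102.0 and 140.0 CPM in uninjected explants, a log2 fold change of -1.12 ± 0.20. At st25 it had 67.9 and 59.2 CPM in foxa1MO explants against 126.0 and 135.0 CPM in uninjected explants, and at st32 76.0 and 52.8 CPM against 110.0 and 103.0 CPM. At both of these stages the foxa1MO libraries lay below all 8 other libraries. At st10.5 the order was the opposite, with 77.0 and 67.9 CPM in foxa1MO explants against 50.3 and 54.4 CPM in uninjected explants. The mean over the 3 stages, which have both signs, was -0.45 ± 0.11 (95% interval -0.68 to -0.22; edgeR adjusted p = 0.113), and it was called with a replicate block within each stage (adjusted p = 0.00937), with DESeq2 (adjusted p = 0.0145) and without experiment 1 of foxa1MO at st32 (adjusted p = 0.0439). At st25 alone the log2 fold change was -1.02 (edgeR adjusted p = 0.0639; 0.0391 with the replicate block), and the change of the effect between st10.5 and st25, of -1.38 ± 0.28, was not called (adjusted p = 1.0, unadjusted p = 3.76e-05).

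uso1.S (gene213), the lower of the tether's copies, was not called. At st16 it had 18.4 and 12.4 CPM in foxa1MO explants against 25.3 and 28.2 CPM in uninjected explants, a difference of -0.84 ± 0.26 (edgeR adjusted p = 0.736, unadjusted p = 0.00351). At st25 the values were 29.8 and 21.2 CPM against 32.6 and 35.3 CPM, and at st32 the groups overlapped. The mean over the stages other than st16 was -0.13 ± 0.15 (95% interval -0.43 to 0.18; edgeR adjusted p = 1.0).

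ndrg4.S (gene13214) was above the 8 other libraries of its stage in both foxa1MO libraries at st16, st25 and st32. It was chosen at st10.5, where foxa1MO explants had 45.9 and 46.9 CPM and uninjected explants 14.6 and 18.2 CPM, a log2 fold change of 1.40 ± 0.21. At st16 it had 32.6 and 43.5 CPM in foxa1MO explants against 23.1 and 22.0 CPM in uninjected explants, at st25 47.1 and 53.3 CPM against 38.4 and 36.4 CPM, and at st32 53.1 and 62.8 CPM against 51.2 and 49.1 CPM. The log2 fold change was 0.69 at st16, 0.44 at st25 and 0.25 at st32, and its mean of 0.46 ± 0.12 missed the threshold (95% interval 0.22 to 0.70; edgeR adjusted p = 0.0749). With the replicate block the mean passed (adjusted p = 0.0281), as it did with DESeq2 (adjusted p = 0.00396).

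ndrg4.L (gene17710) was a low copy. At st10.5 it had 10.4 and 10.9 CPM in foxa1MO explants against 7.29 and 9.1 CPM in uninjected explants, a difference of 0.28 ± 0.48 (edgeR adjusted p = 1.0). At st16 the foxa1MO libraries differed from each other, at 0.714 and 3.94 CPM, and spanned the 1.22 and 2.21 CPM of uninjected explants. Over the stages other than st10.5 its difference was -0.07 ± 0.29 (95% interval -0.66 to 0.52; edgeR adjusted p = 1.0).

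ppp1cc.L (gene18912) was chosen at st10.5, at 315.0 and 291.0 CPM in foxa1MO explants against 93.1 and 77.1 CPM in uninjected explants, a log2 fold change of 1.73 ± 0.30. At st16 it had 32.7 and 66.2 CPM in foxa1MO explants against 18.9 and 14.5 CPM in uninjected explants, at st25 24.8 and 32.5 CPM against 14.3 and 14.9 CPM, and at st32 27.5 and 26.6 CPM against 13.8 and 20.3 CPM. The groups did not overlap at any of these 3 later stages. At st16 and st32 the foxa1MO libraries also lay above all 8 other libraries. At st25 they overlapped the other injections, with ppp1cc.L at 33.7 and 23.3 CPM with suh-dbm and dnmcidas. Over the 3 later stages ppp1cc.L rose by 1.06 ± 0.17 (95% interval 0.71 to 1.41; edgeR adjusted p = 0.0015). At st16 the foxa1MO library of experiment 2 was the higher one, and without that of experiment 1 the stage was called (1.86, edgeR adjusted p = 0.0138). With all libraries, single later stages did not pass, with log2 fold changes of 1.48 at st16 (edgeR adjusted p = 0.0725; 0.0423 with the replicate block), 0.99 at st25 (adjusted p = 0.819) and 0.72 at st32 (adjusted p = 1.0).

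ppp1cc.S (gene9929) overlapped between the groups at all 4 stages. At st10.5 it had 156.0 and 97.3 CPM in foxa1MO explants against 147.0 and 94.0 CPM in uninjected explants, with the higher value of each pair in experiment 1. Its log2 fold change was -0.04 ± 0.30 at st10.5 and 0.03 ± 0.17 over the later stages (95% interval -0.33 to 0.38; edgeR adjusted p = 1.0 for both). When the counts of both ppp1cc copies were summed, the call was lost (0.49, edgeR adjusted p = 0.225).

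psenen.S (gene4678) was the low one of the copies chosen at st10.5, with 2.31 and 4.12 CPM in foxa1MO explants against 7.48 and 12.8 CPM in uninjected explants, a log2 fold change of -1.75 ± 0.31. At st16 it had 10.4 and 12.4 CPM in foxa1MO explants against 13.6 and 18.3 CPM in uninjected explants, and at st25 11.7 and 12.9 CPM against 15.1 and 16.6 CPM. At these 2 stages the foxa1MO libraries lay below all 8 other libraries, and at st32 the groups overlapped (16.1 and 11.6 CPM against 15.3 and 17.6 CPM). The mean over the later stages was -0.36 ± 0.17 (95% interval -0.72 to -0.01; edgeR adjusted p = 0.585), and it was called with a replicate block within each stage (adjusted p = 0.0345). psenen.L (gene6999) overlapped at st10.5, st16 and st25, with a log2 fold change of -0.14 ± 0.27 at st10.5 and 0.23 ± 0.16 over the later stages (95% interval -0.09 to 0.55; edgeR adjusted p = 0.794). At st10.5 psenen.L had 9.36 and 8.38 CPM in foxa1MO explants against 7.64 and 10.6 CPM in uninjected explants.

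aqr.L (gene42408) was low in foxa1MO explants at st16 and st25. At st10.5 it had 240.0 and 264.0 CPM in foxa1MO explants, within the 222.0 to 289.0 CPM of the other 8 libraries. At st16 it had 61.0 and 60.8 CPM in foxa1MO explants against 122.0 and 94.0 CPM in uninjected explants, and at st25 17.5 and 19.9 CPM against 54.1 and 47.7 CPM. At st16 and st25 both foxa1MO libraries lay below all 8 other libraries of their stage. It fell over st10.5, st16 and st25, with a mean of -0.84 ± 0.14 (95% interval -1.13 to -0.55; edgeR adjusted p = 0.00344). At st25 alone the log2 fold change was -1.43 ± 0.25 (edgeR adjusted p = 0.0272), which made aqr.L the only 1 of the 13 tested copies called at that stage, where 0.0284% of all genes were called. That call was lost when any 1 of its 4 libraries was left out (log2 fold change between -1.55 and -1.30, adjusted p between 0.337 and 0.725) and when the 16 foxa1MO and uninjected libraries were fitted alone (adjusted p = 0.212). At st32, where aqr.L was chosen, it had 18.5 and 16.5 CPM against 60.1 and 55.1 CPM, a log2 fold change of -1.68 ± 0.25.

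Few genes were called at a single stage. At st10.5 5 genes were called (0.0158% of those tested). Of the genes with a proper symbol, psenen.S, which this comparison chose, lay just inside the threshold, and gpi.S just outside (edgeR adjusted p = 0.0964). At st16 14 genes were called (0.0442%), with psmb4.L just inside (1.12, edgeR adjusted p = 0.0276) and pou5f3.3.L just outside (3.67, adjusted p = 0.0717). At st32 4 were called (0.0126%), of which only aqr.L, which this comparison chose, had a proper symbol. The nearest outside was bag6.S (-1.27, edgeR adjusted p = 0.0659). Of the named copies not chosen there, 0 of 4 were called at st10.5, 0 of 4 at st16 and 0 of 6 at st32, with 1, 3 and 3 at an unadjusted p under 0.05.

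**Figure D2:**
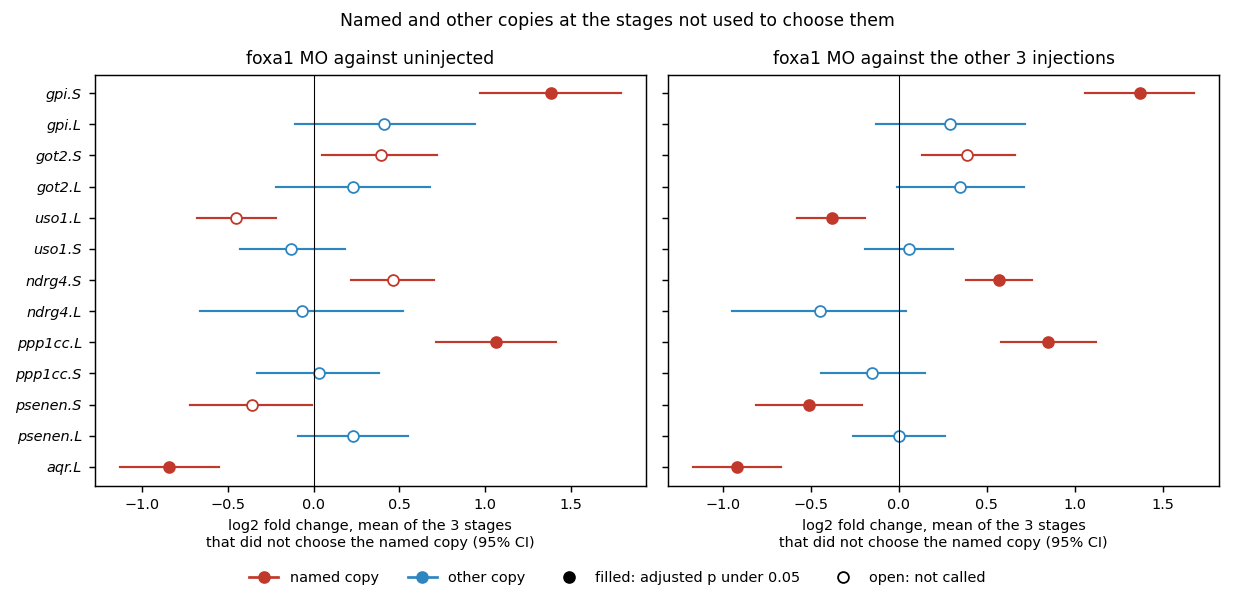
Mean log2 fold change over the 3 stages that did not choose the named copy, with 95% confidence interval, for foxa1MO against uninjected (left) and against the other 3 injections (right); red marks named copies, blue other copies, and filled points an edgeR adjusted p under 0.05. On the left gpi.S (1.38), ppp1cc.L (1.06) and aqr.L (-0.84) are filled, and on the right all named copies but got2.S (0.39) are, while every blue interval on both sides reaches 0.

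Whether the pair shifts together was measured as the share of the named copy in the counts of both copies, which are not corrected for length. Over the later stages the L copy of ppp1cc held 50.7% of the counts in foxa1MO explants and 34.0% in uninjected explants, and the log2 ratio of L to S differed by 1.02. The exact permutation test within stages (2-sided, 6 libraries against 6) gave p = 0.00926, the smallest that its 216 arrangements allow. That test ignored the pairing by experiment and took the stages as independent, although all libraries come from 2 experiments. The S copy of psenen held 32.7% in foxa1MO explants and 42.5% in uninjected explants, a log2 ratio lower by 0.61 in the morpholino group, also with an exact p of 0.00926. For gpi the S copy held 74.7% and 60.7% outside st16, a difference of 1.00 in the log2 ratio with an exact p of 0.0185. In these 3 genes the ratio of the copies had an unadjusted p under 0.05.

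For the remaining pairs the exact permutation p was above 0.05. The L copy of uso1 held 73.7% in foxa1MO explants and 78.0% in uninjected explants (log2 ratio difference -0.32, exact p = 0.0556). ndrg4.S held 95.6% and 93.6% (0.67, exact p = 0.139), and got2.S held 67.9% and 65.9% (0.16, exact p = 0.389). These are 6 tests in a family, with unadjusted p-values. Counts of the L and S copies are uncertain wherever the authors' counting let similar reads fall to either, and how such reads were treated is not given in the sources used here.

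**Figure D3:**
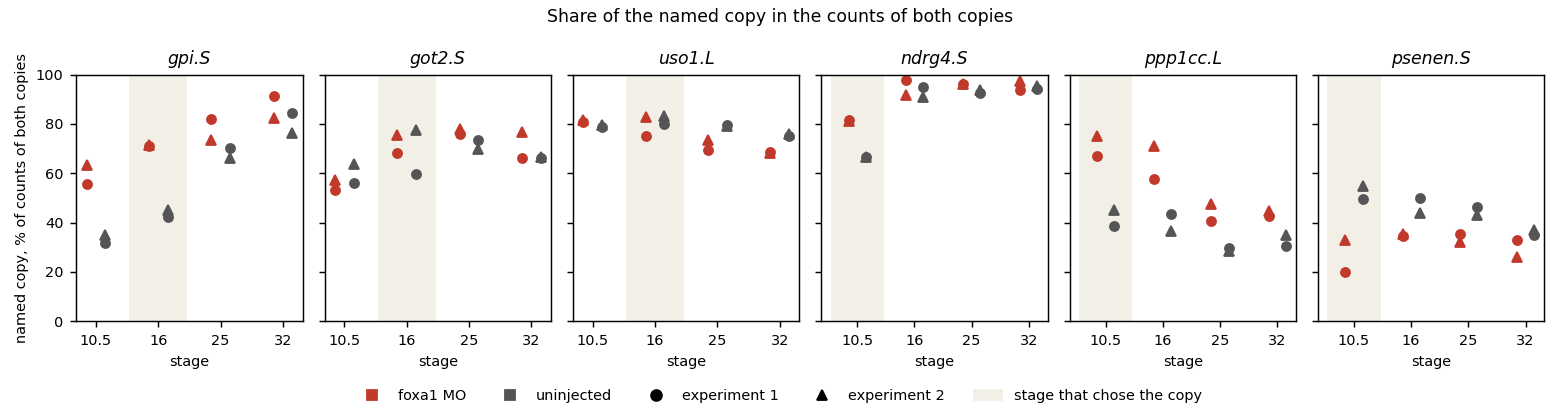
Share of the named copy in the summed counts of both copies (%) for each foxa1MO and uninjected library by stage; circles are experiment 1, triangles experiment 2 and shading the stage that chose the copy. The ppp1cc.L share is higher in foxa1MO libraries at every unshaded stage (57.7% and 71.0% against 43.6% and 36.5% at st16), and the psenen.S share is lower at these. The got2.S, uso1.L and ndrg4.S shares overlap at some stages, and the gpi.S share overlaps at st32 (91.1% and 82.5% against 84.3% and 76.5%).

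The other injections ask whether the same copies move when Notch signalling or multicilin is manipulated. Against uninjected explants and over the stages not used, suh-dbm gave 0 calls among the 13 copies, where edgeR called 0.00316% of all genes without st16 and without st32 and 0.0822% without st10.5. suh-dbm with dnmcidas also gave 0 calls, against 4.89%, 5.71% and 11.9% of all genes. With shares this low and 13 copies, 0 calls cannot show that the copies stayed unmoved. gpi.S with suh-dbm was at 1.54 and 1.71 times the uninjected CPM of the same experiment at st25. At st32 it was at 1.38 and 1.39 times, and at st10.5 at 0.869 and 0.772 times. Unadjusted p-values under 0.05 were found for 1 copy with suh-dbm and for 3 copies with the combination. nicd gave 3 calls, against 11.5%, 14.3% and 25.8% of all genes, so edgeR gave 3 calls over the 3 injections. DESeq2 gave 5, adding got2.S with suh-dbm (0.65, adjusted p = 0.00941) and aqr.L with nicd (adjusted p = 0.0351). The edgeR fit with a replicate block gave 4 calls, adding aqr.L with nicd, and with a replicate block within each stage 9 calls. For these 3 injections the share of all genes called by DESeq2 and by the block fits is not given, so these counts are a description. The 6 added by the block within each stage were got2.S with suh-dbm (0.62, adjusted p = 0.0339), ppp1cc.L (0.40, adjusted p = 0.0483) and ppp1cc.S (0.36, adjusted p = 0.0033) with suh-dbm and dnmcidas, and aqr.L (0.36, adjusted p = 0.00369), ppp1cc.S (0.22, adjusted p = 0.0423) and psenen.L (0.31, adjusted p = 0.0316) with nicd.

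The nicd calls were got2.S, got2.L and ndrg4.L. got2.S had 4.71 and 2.63 CPM in nicd explants of st25 against 11.3 and 9.67 CPM in uninjected explants, and 4.49 and 6.75 CPM against 15.1 and 14.2 CPM at st32. It fell by 1.01 ± 0.16 over the stages other than st16 (edgeR adjusted p = 8.58e-05), the opposite sign to its foxa1MO value of 0.39. Its values with suh-dbm (0.62 ± 0.16, edgeR adjusted p = 0.426) and with suh-dbm and dnmcidas (0.37 ± 0.16, adjusted p = 0.235) had the same sign as the foxa1MO value and were not called. At st25 it had 22.1 and 21.1 CPM with suh-dbm, 25.1 and 16.5 CPM with suh-dbm and dnmcidas, and 11.5 and 13.8 CPM with foxa1MO. The 4 comparisons share the uninjected libraries. got2.L fell with it, by 0.91 ± 0.22 (edgeR adjusted p = 0.00672), at 1.77 and 1.33 CPM in nicd explants of st25 against 4.08 and 4.15 CPM in uninjected explants. Both copies of this aminotransferase fell under nicd. ndrg4.L rose by 0.79 ± 0.28 over the later stages (edgeR adjusted p = 0.043), at 4.48 and 4.63 CPM in nicd explants of st25 against 3.06 and 2.4 CPM in uninjected explants. That call was lost in 9 of the 12 fits that each left out 1 library (adjusted p up to 0.13, without experiment 2 of the uninjected explants at st32) and in the fit without a filter on low counts (adjusted p = 0.0853).

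The got2 pair also differed between injections, without the uninjected libraries. At st25 got2.S had 4.71 and 2.63 CPM with nicd and 22.1 and 21.1 CPM with suh-dbm, a difference of -2.56 ± 0.30 (edgeR adjusted p = 1e-06). got2.L differed there by -2.33 ± 0.40 (adjusted p = 0.000141), and these were 2 of the 13 copies called, against 18.7% of all genes. At st32 the differences were -2.33 ± 0.29 for got2.S and -1.70 ± 0.39 for got2.L (edgeR adjusted p = 3.48e-06 and 0.00381; 10.9% of all genes called). At st16 got2.L rose with suh-dbm and dnmcidas together, at 8.45 and 4.45 CPM against 2.13 and 1.13 CPM in uninjected explants (1.85 ± 0.39, edgeR adjusted p = 0.00322). There 4.12% of all genes were called. With this combination got2.S was also high at st16, at 9.58 and 8.48 CPM against 3.15 and 3.94 CPM in uninjected explants. In foxa1MO explants of that stage it had 9.75 and 19.2 CPM. These got2.S values are a description, since the uninjected libraries of st16 took part in its choice.

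Other copies moved under these injections at single stages. uso1.S was at 11.5 and 17.5 CPM in nicd explants of st16 against 25.3 and 28.2 CPM in uninjected explants (-0.94 ± 0.26, edgeR adjusted p = 0.0189; 9.93% of all genes called). gpi.L was higher with nicd than with suh-dbm at st16, at 14.7 and 6.19 CPM against 3.37 and 4.53 CPM (1.44 ± 0.45, edgeR adjusted p = 0.0353; 12.7% of all genes called). gpi.S was lower with suh-dbm and dnmcidas than with suh-dbm alone at st32, at 9.27 and 7.52 CPM against 22.7 and 18.6 CPM (-1.48 ± 0.35, edgeR adjusted p = 0.0124; 2.92% of all genes called). aqr.L, low with the morpholino, was at 90.5 and 73.7 CPM in nicd explants of st25 against 54.1 and 47.7 CPM in uninjected explants, and its nicd mean outside st32 of 0.38 ± 0.14 was not called (edgeR adjusted p = 0.0723; 0.0419 with the replicate block).

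**Figure D4:**
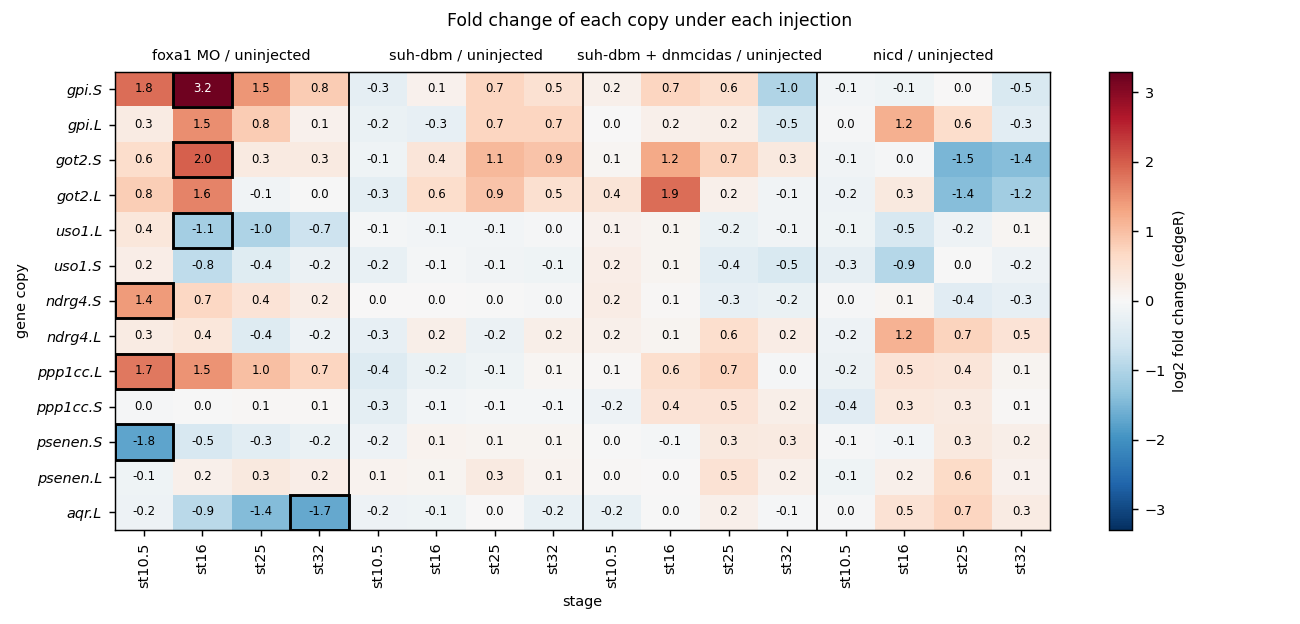
Log2 fold change (edgeR) of the 13 detected copies in each of the 4 injections against uninjected explants at each stage, red for higher and blue for lower in the injected explants; black frames mark the comparisons that chose the named copies. Outside the framed comparisons gpi.S, ppp1cc.L and ndrg4.S are positive in every foxa1MO column and aqr.L is negative. The got2 copies are negative with nicd at st25 (-1.50 and -1.40).

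The difference between the morpholino and the other injections was tested directly, against the mean of suh-dbm, suh-dbm with dnmcidas and nicd. Over the stages not used, 6 of the 7 named copies and 0 of the 6 other copies were called. The same test called 5.94% of all genes without st16, 11.9% without st10.5 and 5.89% without st32, and 0 of the 6 other copies had an unadjusted p under 0.05. gpi.S was higher with the morpholino by 1.37 ± 0.15 (edgeR adjusted p = 5.65e-07), ppp1cc.L by 0.85 ± 0.13 (adjusted p = 4e-05) and ndrg4.S by 0.57 ± 0.09 (adjusted p = 6.26e-05). aqr.L was lower, at -0.92 ± 0.12 (edgeR adjusted p = 9.62e-06), as were psenen.S at -0.51 ± 0.14 (adjusted p = 0.021) and uso1.L at -0.38 ± 0.09 (adjusted p = 0.0117). got2.S, at 0.39 ± 0.13, was not called (edgeR adjusted p = 0.0747), and was called with a replicate block within each stage (adjusted p = 0.0166). For got2.S the mean of the 3 injections joins values of both signs, with suh-dbm and the combination above uninjected explants and nicd below them.

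Single libraries decided 3 of these results. In 24 fits that each left out 1 library, the uso1.L call was lost without experiment 2 of foxa1MO at st10.5, st25 or st32 (-0.36, -0.34 and -0.31, edgeR adjusted p = 0.0642, 0.0733 and 0.0962). The psenen.S call was lost without either foxa1MO library of st25 (-0.49 and -0.52, edgeR adjusted p = 0.0657 and 0.0551), experiment 1 at st16 (-0.49, adjusted p = 0.0747) or experiment 2 at st32 (-0.44, adjusted p = 0.105). got2.S was gained without experiment 1 of nicd at st25 (0.45, edgeR adjusted p = 0.0219), experiment 2 of nicd at st32 (0.43, adjusted p = 0.0477) or experiment 1 of suh-dbm with dnmcidas at st25 (0.43, adjusted p = 0.0488). With the counts of both copies summed, edgeR called 3 of the 7 genes. It did not call ppp1cc (0.29, adjusted p = 0.135), psenen (-0.20, adjusted p = 0.323) or uso1 (-0.27, adjusted p = 0.0913). The share of all genes called in that summed fit is not given, so this count is a description.

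At single stages the contrast with the other injections gave calls for named copies outside their stage of choice. gpi.S was called at st10.5 (1.92 ± 0.26, edgeR adjusted p = 0.000334), the 1 of 4 such copies called there, where 0.139% of all genes were called. At st16 3 of 4 were called (3.38% of all genes), ppp1cc.L at 1.22, aqr.L at -1.0 and ndrg4.S at 0.64. At st25 4 of 7 were called (4.52% of all genes), aqr.L at -1.73, gpi.S at 1.04, uso1.L at -0.86 and ndrg4.S at 0.66. At st32 2 of 6 were called (3.54% of all genes), gpi.S at 1.17 and uso1.L at -0.67. The edgeR adjusted p of these calls lay between 7.41e-06 and 0.019. psenen.S and got2.S were called at no single stage outside their stage of choice.

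**Figure D5:**
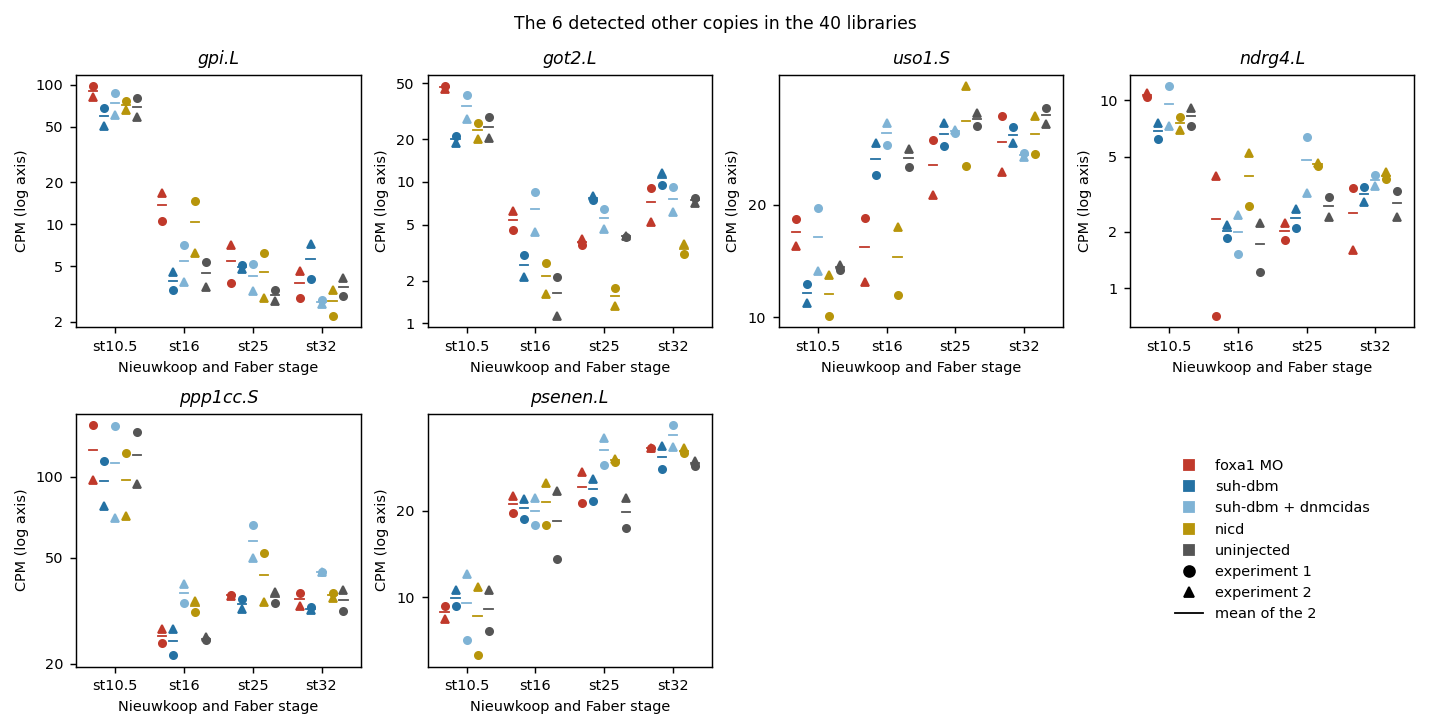
CPM (log axes) of the 6 detected other copies in the 40 libraries by stage, with foxa1MO at the left and uninjected at the right of each stage; circles are experiment 1, triangles experiment 2 and lines the mean of the 2. The foxa1MO points overlap the other 8 libraries at every stage except for got2.L at st10.5, at 47.8 and 45.7 CPM against 19.0 to 41.4 CPM.

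In uninjected explants the levels of the copies changed between stages. Of the 7 copies that could be tested between st16 and st10.5, 7 were called, where 44.8% of all genes were. aqr.L fell by 0.91 ± 0.24 at this step (edgeR adjusted p = 0.00358) and by 1.19 ± 0.25 between st25 and st16 (adjusted p = 0.00108). got2.L fell by 3.50 ± 0.41, gpi.L by 3.56 ± 0.48, ppp1cc.S by 1.90 ± 0.31 and ndrg4.L by 1.90 ± 0.50, while psenen.L rose by 1.38 ± 0.27 and uso1.S by 1.35 ± 0.26 (edgeR adjusted p between 3.21e-07 and 0.00341). Between st25 and st16, 3 of 10 copies were called (21.9% of all genes), namely aqr.L, got2.L (1.21 ± 0.38) and ndrg4.S (0.64 ± 0.20). Between st32 and st25, 0 of 12 were called by edgeR (1.44% of all genes), 2 of them with an unadjusted p under 0.05. No change of the foxa1MO effect between stages was called for any copy, in up to 12 copies per pair of stages, and 0 to 2 per pair had an unadjusted p under 0.05. These tests called between 0% and 0.00316% of all genes per pair, so they cannot show that the effects were stable between stages.

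Genes that share a pathway with the named copies gave no calls, in comparisons that called few genes of any kind. In 7 lists (glycolysis, malate-aspartate shuttle, transport between the endoplasmic reticulum and the Golgi, the NDRG family, protein phosphatase 1, gamma-secretase, and the intron-binding and associated splicing complexes), edgeR called 0 copies in any comparison of foxa1MO with uninjected explants. Those comparisons called 0.0126% to 0.626% of all genes, so 0 calls in lists of this size do not set the pathways apart from other genes. At st16 the 29 tested glycolysis copies had a median log2 fold change of 0.02, with 0 at an unadjusted p under 0.05, beside -0.05 over all genes. The 10 shuttle copies had a median of 0.12 and the 22 transport copies one of -0.12 at that stage, with 1 and 0 at an unadjusted p under 0.05. mdh2.L, a malate dehydrogenase, had the largest value of the shuttle list at 1.44 ± 0.55, and eno1.S, an enolase, that of glycolysis at 1.17 ± 0.70 (edgeR adjusted p = 1.0 for both). The largest of the transport list was bet1.S, a vesicle SNARE, at -0.74 ± 0.40 (edgeR adjusted p = 1.0).

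At st10.5 the 7 gamma-secretase copies had a median of -0.19 and the 11 phosphatase copies one of -0.15, beside -0.04 over all genes, with 0 and 1 at an unadjusted p under 0.05. The largest values were those of aph1a.S, a gamma-secretase subunit (-0.55 ± 0.32), ppp1cb.S, another catalytic subunit (-0.41 ± 0.20), and ndrg3.S (-4.72 ± 2.91), each with an edgeR adjusted p of 1.0. The SE of ndrg3.S is wide, and its value is not read as a loss. Of the 5 NDRG copies, 1 had 0 counts in foxa1MO explants of st10.5. At st32 the 13 splicing copies had a median of 0.19, beside 0.00 over all genes, with 0 at an unadjusted p under 0.05, and syf2.S had the largest value (0.37 ± 0.27, edgeR adjusted p = 1.0). At the same stage 3 of the 29 glycolysis copies and 2 of the 5 NDRG copies had an unadjusted p under 0.05, with medians of 0.02 and -0.70. Over the stages other than st16, 4 of the 29 glycolysis copies had such a p (median 0.04, beside -0.01 over all genes). Over those other than st10.5, 2 of the 11 phosphatase copies (median -0.03) and 1 of the 5 NDRG copies (median -0.66) had one, beside a median of -0.02 over all genes.

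Some of the named genes lie on the same chromosome. In the gene order of the RefSeq annotation of assembly Xenopus_laevis_v10.1, 3 annotated genes lie between got2.S and ndrg4.S, and 61 between gpi.S and ndrg4.S. Their L copies lie in a like way, with 8 annotated genes between got2.L and ndrg4.L and 107 between gpi.L and ndrg4.L. aqr.L and foxa1.L lie on the same chromosome with 40 annotated genes between them. A part of gene position in the differences was not tested.

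The genes most like each named copy over the 40 libraries were found by Pearson's r of log2 CPM among 12703 genes with a proper symbol, a description in which all points share library depth and stage. aqr.L was most like snupn.L (r = 0.960), csnk2a1.L (0.945) and syncrip.S (0.944), and ppp1cc.L most like ddx19b.L (0.956), nelfa.L (0.942) and rab5d.S (0.939). got2.S was most like oma1.S (0.930), its own copy got2.L (0.930) and mrpl42.S (0.916). ndrg4.S followed cops3.S (0.908), akr1b1.L (0.887) and aktip.S (0.883), and gpi.S followed vps16.S (0.901), atp5b.L (0.861) and otub1.L (0.856). The nearest to psenen.S were ids.L (0.857), cln3.L (0.842) and med31.S (0.837), and to uso1.L yipf1.L (0.842), cyfip1.L (0.838) and cnep1r1.S (0.825). Only got2 had its other copy among the 3 most like genes, with r = 0.713 between the gpi copies, 0.825 between those of uso1, 0.823 between those of ppp1cc, 0.755 between those of psenen and -0.304 between those of ndrg4.

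The authors' deposited table for st25 lists aqr.L at a log2 fold change of -1.18 (adjusted p = 1.14e-05), gpi.S at 1.08 (adjusted p = 0.00247), uso1.L at -0.85 (adjusted p = 0.00557) and ppp1cc.L at 0.79 (adjusted p = 0.0359), all from DESeq2. In the authors' deposited table for st10.5, gpi.S is at 1.38 (adjusted p = 1.7e-06). At the stages that chose them, the authors list psenen.S at -0.86 (st10.5, adjusted p = 0.325) and uso1.L at -0.83 (st16, adjusted p = 0.486). Of the other copies the authors' deposited tables give no adjusted p below that of gpi.L at st16 (0.181).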

How the data were processed

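Poly-A RNA of 40 animal cap samples was sequenced from unstranded libraries, per the labels' protocols, so reads of overlapping antisense genes cannot be told apart. FastQC 0.11.5, STAR 2.6.0b-1, featureCounts 1.6.3 and DESeq2 1.22.1 are named in the submitters' processing notes. The genome build and the treatment of reads that match both copies are not given in the sources used here. The authors deposited whole-number counts per gene ID and a table pairing IDs with symbols (other text), and, for each comparison, log2 fold changes and adjusted p-values from DESeq2, of which the 4 foxa1MO tables were read.

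The members, lists and tests were chosen with earlier results of these data known. Genes named in the text are both copies of the 7 symbols, foxa1, the 3 genes most correlated with each named copy, the list member with the largest change at the stage of choice, and the genes nearest the threshold. One edgeR 4.0.16 quasi-likelihood fit (R 4.3.3, limma 3.58.1) covered 40 libraries in 20 groups, with TMM scaling, no block and 20 residual degrees of freedom. Genes passed edgeR's filter with a minimum count of 10 and a total of 15, which left 31648 of 51017, and p-values were adjusted over them by Benjamini-Hochberg. Of the 14 copies, 13 passed, aqr.S being at 0 throughout. CPM divides by the library total, 20.2 M to 99.4 M counts (median 36.3 M), and the limit for 0 counts covers counting error only. The script was tested on simulated counts.

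The 2 libraries of a group come from 2 experiments with different females, so that the replicate number pairs samples across groups. The deviations of same-numbered samples correlated at 0.17 to 0.64 (median 0.44) over the 40 pairs of groups of one stage, and at 0.05 to 0.64 over all 190 pairs. The count file headers carry a dataset number, 604 or 630, that largely follows the experiment, and a fit with it as a term was added. The exceptions are uninjected explants of experiment 1 at st10.5 and st16, and uninjected and nicd explants of experiment 2 at st10.5. The number therefore differs between foxa1MO and uninjected explants at st10.5 in both experiments and at st16 in experiment 1. These stages chose all named copies but aqr.L. Alternatives were a replicate block, DESeq2's size factors (RLE), no filter, DESeq2 1.42.0, the 16 libraries of an injection and the uninjected explants alone, summed L and S copies, and each library left out in turn. Fits without a library kept the gene filter and dispersion trend of the full fit and assumed that the lone library of its group varies like the other groups. The replicate block within each stage and the header term were chosen after seeing the data.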

Additional observations from a re-analysis of the deposited data

Results flagged for a closer look

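The nicd effect on got2.S differed between stages. Against uninjected explants its log2 fold change was lower at st25 than at st10.5 by a tested difference of -1.38 ± 0.40 (edgeR adjusted p = 0.0478). At st25 got2.S had 4.71 and 2.63 CPM in nicd explants against 11.3 and 9.67 CPM in uninjected explants, and at st10.5 33.3 and 36.1 CPM against 36.9 and 35.7 CPM. The difference is just past the threshold, and its cause was not tested. This test called 1 of 10 copies, beside 4.19% of all genes.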

How the results depend on the processing

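The number of genes called between foxa1MO and uninjected explants depended on the model more than the members' values did. At st10.5, st16, st25 and st32 the counts of 5, 14, 9 and 4 became 9, 31, 25 and 12 with the replicate block, 72, 192, 123 and 153 with a replicate block within each stage, and 40, 81, 52 and 54 with DESeq2. With 16 libraries alone they were 1, 5 and 1 at the first 3 stages, with summed copies 2 at st10.5, without a filter 16 at st25 and 13 at st32, and with a term for the header's dataset number 8 at st10.5, 17 at st25 and 8 at st32. The averages without st10.5, st16 and st32, with 198, 75 and 88 calls, gave 332, 140 and 149 with the replicate block, 1385, 606 and 786 with the block within each stage, 540, 250 and 298 with DESeq2, and 91, 21 and 25 with 16 libraries alone. Of the 7 named copies, 3 were called against uninjected explants, 6 with the block within each stage and 5 with DESeq2; against the other injections 6 were called, and 3 with summed copies. The 3 calls of the other injections became 9 with the block within each stage and 5 with DESeq2. Shares of all genes called are not given for these fits of the other injections, or for the contrast with summed copies. Those counts are therefore a description.

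Leaving out 1 library at a time gave 0 to 4 calls at st10.5, 1 to 14 at st16, 0 to 4 at st25 and 0 to 18 at st32, and 89 to 226, 27 to 102 and 41 to 86 for the averages without st10.5, st16 and st32. It gave 3 to 4 of the 7 named copies and 0 to 0 of the 6 other copies against uninjected explants, 4 to 7 named copies against the other injections, and 2 to 3 calls for the other injections. gpi.S stayed between 1.29 and 1.49, ppp1cc.L between 0.89 and 1.19 and aqr.L between -0.92 and -0.74, all called in each of these fits. For single copies the replicate block added 7 calls, each given beside its result, and changed no other call (79 results). No result changed direction past a threshold in any setting run, and the cause of the changed counts was not tested. With 2 libraries a group, differences of the low copies such as ndrg4.L (SE 0.48 at st10.5) were not detectable at this depth and replication unless large.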
